A study of Mus musculus with 8 samples.

Results

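The neutrophil granule protein genes were followed in 8 RNA sequencing libraries of mouse bone marrow stem and progenitor cells. The 10 genes were taken by symbol from a table of 23284 genes, and all 10 were present. They form 2 classes of 5. Mpo, Elane, Prtn3, Ctsg and Cst7 encode proteins of the primary (azurophil) granule programme, and Ltf, Camp, Ngp, S100a8 and S100a9 encode proteins that appear later in neutrophil maturation. The cells were LSK cells (negative for lineage markers, positive for Sca-1 and c-Kit) of Hdc-GFP mice on the C57BL/6 background, in which green fluorescent protein (GFP) reports the activity of Hdc, the gene of the histamine-forming enzyme histidine decarboxylase. They were sorted into a bright fraction (Hdc-GFPhi, n = 4 libraries) and a dim fraction (Hdc-GFPlo, n = 4 libraries), with 2000 cells per library. All the animals carried the reporter, no treatment or age is given, and the cell type of Hdc-GFPhi replicate 4 is labelled GFP+ rather than GFPhi. The labels do not tie replicates to separate mice, and the spread behind the p-values is that between these libraries, which may be technical.

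Neutrophil granules are filled in waves as the cell matures. Promyelocytes make the azurophil granule proteins, among them the peroxidase Mpo, which forms hypochlorous acid, and the serine proteases neutrophil elastase (Elane), proteinase 3 (Prtn3) and cathepsin G (Ctsg). Cst7 (cystatin F) inhibits some cysteine cathepsins, among them cathepsin C, which activates these serine proteases. Myelocytes and later cells make the specific granule proteins lactoferrin (Ltf), which binds iron, the cathelicidin Camp, the precursor of an antimicrobial peptide, and Ngp, a cystatin-like neutrophilic granule protein. S100a8 and S100a9 form calprotectin, a cytosolic calcium- and zinc-binding complex of neutrophils and monocytes. PU.1 and C/EBP factors drive these genes, with C/EBP-epsilon needed for the specific granules. Haematopoietic stem cells have no such granules, while some of their multipotent progeny already transcribe primary granule genes such as Mpo.

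The sequences upstream of the genes are shown because the primary genes share a short motif there that most of the late genes do not have. RefSeq start sites (build GRCm38.p6) matched all 10 symbols, and the 250 bases before each start were searched on both strands. AGGAAGT, a core bound by ETS factors such as PU.1 that was picked after the sequences were seen, was found upstream of 5 of 5 primary genes and of 1 of 5 late genes (S100a8), against 7.69% of 32851 RefSeq promoters. TTNNGNAA, a C/EBP core, was found upstream of 1 of 5 primary genes (Cst7) and of 4 of 5 late genes (all but Camp), against 36.8% of promoters. CAACGG, a Myb core, lay upstream of Elane and Prtn3 and of no late gene, against 4.05%. TATAAA lay upstream of Ctsg and S100a8, against 12.4%. None of these matches overlaps another. A match describes letters only and shows no binding. The 4 primary genes printed are Cst7 and Ctsg, whose levels did not overlap between the fractions, and Elane and Prtn3, which are neighbours on chromosome 10. Each runs 5′ to 3′ on the strand of its gene, from 250 bases before the start site up to that site or to the first annotated exon, with the AGGAAGT match in capitals.
Cst7: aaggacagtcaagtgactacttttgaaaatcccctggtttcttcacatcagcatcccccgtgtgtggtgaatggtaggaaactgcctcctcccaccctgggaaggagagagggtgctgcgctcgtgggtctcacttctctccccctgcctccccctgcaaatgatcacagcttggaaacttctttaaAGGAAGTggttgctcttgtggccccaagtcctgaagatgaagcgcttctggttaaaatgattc
Ctsg: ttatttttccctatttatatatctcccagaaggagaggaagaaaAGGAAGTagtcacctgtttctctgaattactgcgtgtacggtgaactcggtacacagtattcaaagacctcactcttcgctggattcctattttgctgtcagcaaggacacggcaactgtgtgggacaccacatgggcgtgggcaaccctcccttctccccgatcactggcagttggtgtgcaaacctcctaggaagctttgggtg
Prtn3: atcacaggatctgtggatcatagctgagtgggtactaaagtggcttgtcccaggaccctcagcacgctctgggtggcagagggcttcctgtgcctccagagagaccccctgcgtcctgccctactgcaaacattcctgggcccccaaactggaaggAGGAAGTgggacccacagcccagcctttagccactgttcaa
Elane: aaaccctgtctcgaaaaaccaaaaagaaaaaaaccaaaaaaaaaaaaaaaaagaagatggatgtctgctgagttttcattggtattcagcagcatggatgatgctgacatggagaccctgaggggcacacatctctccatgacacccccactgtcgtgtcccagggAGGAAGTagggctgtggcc
Cst7's stretch lies at chr2:150570165-150570414, plus strand, and that of Ctsg at chr14:56102575-56102824, minus strand. That of Prtn3 lies at chr10:79879417-79879613, plus strand, and that of Elane at chr10:79886062-79886246, plus strand. The CAACGG match of Elane lies past the end of its printed stretch, and that of Prtn3 runs over the end. For contrast, the upstream sequences of the late genes Ltf and Ngp are given with the matches to TTNNGNAA, on either strand, in capitals. A further Ngp match, 11 to 4 bases before the start site, lies past the end of the printed stretch.
Ltf: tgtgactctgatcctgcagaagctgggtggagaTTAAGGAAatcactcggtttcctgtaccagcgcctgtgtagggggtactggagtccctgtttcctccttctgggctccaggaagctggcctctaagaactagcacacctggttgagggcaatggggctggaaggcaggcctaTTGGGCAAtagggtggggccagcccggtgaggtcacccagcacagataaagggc
Ngp: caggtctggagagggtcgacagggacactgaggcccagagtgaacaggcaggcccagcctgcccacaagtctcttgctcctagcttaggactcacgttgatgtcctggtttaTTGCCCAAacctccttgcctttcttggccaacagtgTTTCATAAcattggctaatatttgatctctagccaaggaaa
That of Ltf lies at chr9:111019042-111019270, plus strand, and that of Ngp at chr9:110419558-110419746, plus strand. The submitters' notes name build mm9 for the counts, so these coordinates serve only to locate the sequences.

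Library totals were 21041170 to 22470121 counts in Hdc-GFPhi and 16726179 to 23051277 counts in Hdc-GFPlo. All 10 granule genes had counts in all 8 libraries, from 97 (Ctsg in Hdc-GFPhi replicate 2) to 18059 (Mpo in Hdc-GFPlo replicate 1), and all passed the filter on low counts. No group of libraries was at or near 0 for any of them. Together they took 0.202 to 0.257% of the counts of an Hdc-GFPhi library and 0.241 to 0.315% of an Hdc-GFPlo library. The genes behind the sort gate were present throughout, with Kit at 1460 ± 109.5 CPM for Hdc-GFPhi and 1195 ± 315 CPM for Hdc-GFPlo, and Ly6a, which encodes Sca-1, at 125 ± 19.0 CPM for Hdc-GFPhi and 119 ± 16.9 CPM for Hdc-GFPlo (TMM-scaled counts per 1000000, CPM, mean ± SD over 4 libraries of each fraction). Over all genes, Hdc-GFPlo replicate 3 stood apart from its own fraction, with a chi-square per degree of freedom of 52.5 to 58.2 against the other Hdc-GFPlo libraries, where the remaining Hdc-GFPlo pairs had 13.8 to 19.0. Pairs of Hdc-GFPhi libraries had 19.3 to 39.97.

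Cst7 was lower in Hdc-GFPhi LSK cells, and the other 9 granule genes did not pass the test. The log2 fold change was below 0 for 4 of 5 primary genes (median -0.85) and 5 of 5 late genes (median -0.46), against 50.1% of all 13300 genes tested and a median of 0.00. The primary median, here the value of Elane, was -0.34 without Hdc-GFPlo replicate 2, and the late median was -0.22 without Hdc-GFPlo replicate 3. With edgeR's quasi-likelihood test and an adjusted p threshold of 0.05, 1 of 10 granule genes was called, lower in Hdc-GFPhi. Among all genes tested 0.947% were called in either direction and 0.707% were called lower. At an unadjusted p under 0.05, 3 of 10 were lower (Cst7, Ctsg and S100a9) and none was higher, where 5.56% of all genes were lower. The libraries of the fractions did not overlap for Cst7 and Ctsg, against 6.92% of all genes, and 3.54% with Hdc-GFPhi lower. In bulk RNA such as this, fewer cells of a type and less RNA per cell cannot be told apart.

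**Figure D1:**
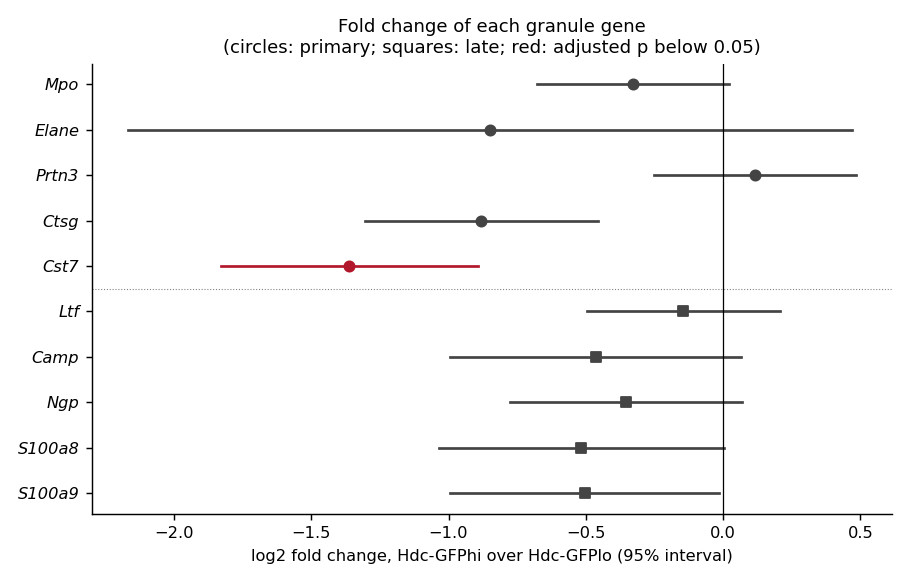
Log2 fold change of each granule gene in Hdc-GFPhi over Hdc-GFPlo (x axis) with its 95% interval from edgeR; genes run down the page, primary genes as circles and late genes as squares. Cst7, in red, at -1.36, is the one gene past the adjusted threshold, and the intervals of Ctsg and S100a9 also lie below 0.

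Among the primary genes, Cst7 showed the clearest separation. Its level was 21.7, 11.1, 15.8 and 14.5 CPM in Hdc-GFPhi replicates 1 to 4, and 48.4, 29.2, 47.9 and 36.5 CPM in Hdc-GFPlo replicates 1 to 4. The highest Hdc-GFPhi library lay below the lowest Hdc-GFPlo library. Over 4 libraries of each fraction the mean was 15.8 ± 4.40 CPM (SD) for Hdc-GFPhi and 40.5 ± 9.31 CPM for Hdc-GFPlo. The level was 2.57-fold lower in Hdc-GFPhi, with a log2 fold change of -1.36 ± 0.22 (SE, 95% interval -1.83 to -0.89, adjusted p = 0.00891). It was called in each of the 8 fits with 1 library left out (adjusted p up to 0.0456), among them the fit that dropped Hdc-GFPlo replicate 3 (log2 fold change -1.26, adjusted p = 0.0203), but not when Hdc-GFPhi replicate 4 was left out along with Hdc-GFPlo replicate 3 (log2 fold change -1.22, adjusted p = 0.0591).

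Ctsg had the lowest level per kilobase of exon of the 10 transcripts and gave the second-smallest p among them. It was at 6.60, 4.53, 5.48 and 6.77 CPM in Hdc-GFPhi replicates 1 to 4, from 97 to 152 counts, and at 10.2, 10.8, 12.2 and 9.84 CPM in Hdc-GFPlo replicates 1 to 4, from 182 to 230 counts. The fractions did not overlap, and the spread within each was narrow. The mean was 5.84 ± 1.05 CPM for Hdc-GFPhi and 10.8 ± 1.06 CPM for Hdc-GFPlo. The log2 fold change was -0.88 ± 0.20 (95% interval -1.30 to -0.45), and the adjusted p of 0.0596 missed the threshold. DESeq2 (adjusted p = 0.00112), voom (0.0355) and a fit with a covariate separating replicates 1 and 2 from 3 and 4 (0.0351) called it lower. In the other fits, each with 1 library left out included, it was not called (adjusted p up to 0.164).

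Mpo, the peroxidase gene, overlapped between the fractions through a single library. It was at 744, 415, 518 and 497 CPM in Hdc-GFPhi replicates 1 to 4, and at 799, 659, 581 and 689 CPM in Hdc-GFPlo replicates 1 to 4. Hdc-GFPhi replicate 1 lay among the Hdc-GFPlo libraries, and the other 3 Hdc-GFPhi libraries lay below all of them. The mean was 543 ± 141 CPM for Hdc-GFPhi and 682 ± 90.2 CPM for Hdc-GFPlo, with a log2 fold change of -0.33 ± 0.16 (adjusted p = 0.504). Without Hdc-GFPhi replicate 1 the log2 fold change was -0.52 (adjusted p = 0.111). An antisense gene, Gm11505, overlaps Mpo in GENCODE, and no source used here gives the strand setting of the counting.

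Elane was the most variable granule gene. It was at 26.8, 5.04, 5.92 and 14.7 CPM in Hdc-GFPhi replicates 1 to 4, and at 18.2, 47.3, 13.5 and 15.8 CPM in Hdc-GFPlo replicates 1 to 4. Levels spanned 5.32-fold within Hdc-GFPhi and 3.52-fold within Hdc-GFPlo, and Hdc-GFPhi replicate 1 exceeded 3 of the 4 Hdc-GFPlo libraries. Its coefficient of biological variation of 55.6% exceeded that of 97.0% of all genes tested, while those of the other 9 granule genes lay between 17.0 and 24.4%. The log2 fold change of -0.85 ± 0.58 had an interval of -2.17 to 0.47 (adjusted p = 0.698), which covers both directions. It moved between -1.46 and -0.27 as single libraries were left out, lowest without Hdc-GFPhi replicate 1 and highest without Hdc-GFPlo replicate 2.

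Prtn3, a neighbour of Elane in the genome (3.07 kb apart, with no annotated gene between them), was at the same level in both fractions within the spread. It was at 203, 248, 155 and 186 CPM in Hdc-GFPhi replicates 1 to 4, and at 148, 238, 193 and 152 CPM in Hdc-GFPlo replicates 1 to 4. The fractions overlapped fully, with means of 198 ± 38.7 CPM for Hdc-GFPhi and 183 ± 42.0 CPM for Hdc-GFPlo. The log2 fold change of 0.12 ± 0.17 (95% interval -0.25 to 0.48, adjusted p = 0.879) was the 1 value above 0 among the 10 genes. Its highest library, Hdc-GFPhi replicate 2, was the lowest for Mpo, Elane, Ctsg and Cst7. The ratio of Prtn3 to Elane counts ran from 7.58 to 49.2 over Hdc-GFPhi libraries and from 5.03 to 14.3 over Hdc-GFPlo libraries. In GENCODE, the span of Plppr3 overlaps that of Prtn3 on the opposite strand. Shared exon bases were not measured, so it is not known here whether unstranded counting could mix reads of the pair.

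**Figure D2:**
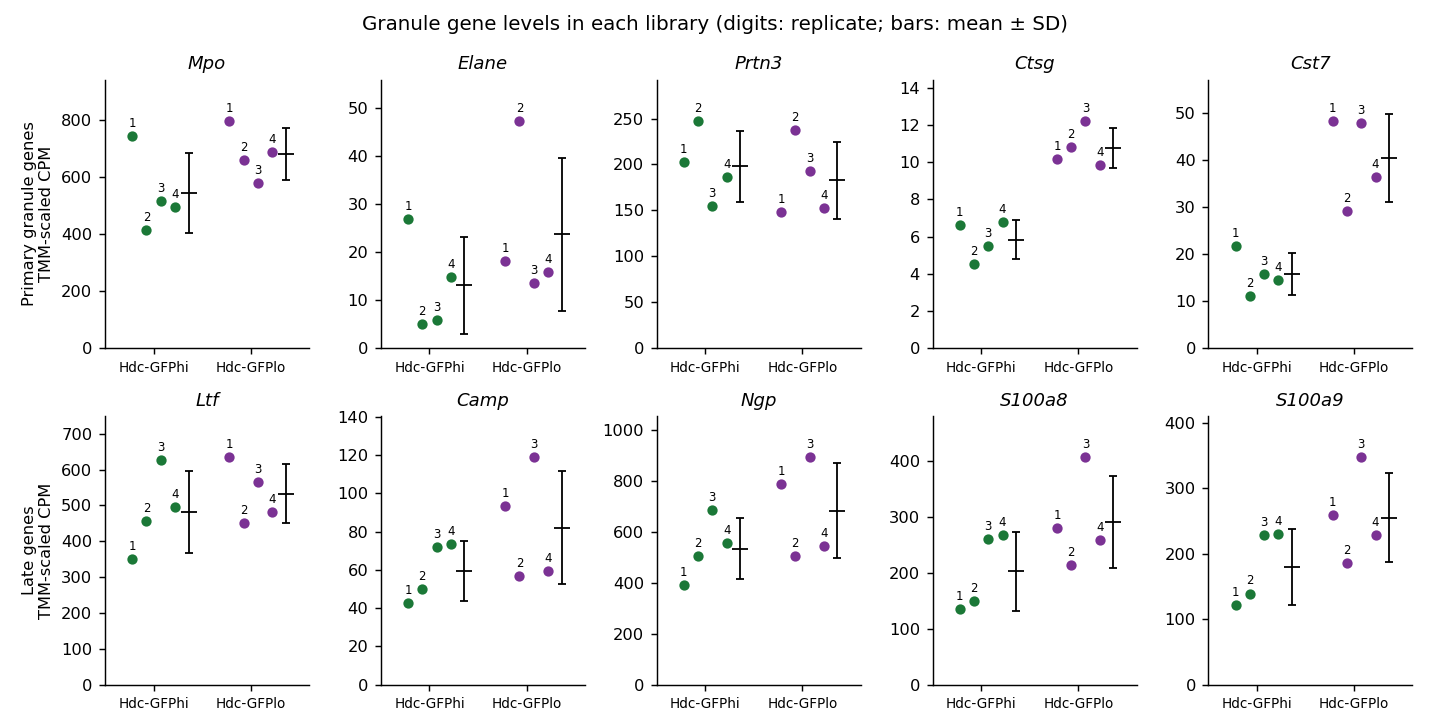
TMM-scaled CPM (y axes, from 0) of each granule gene in the 4 Hdc-GFPhi (left) and 4 Hdc-GFPlo (right) libraries, with replicate digits, means and SD bars; primary genes are in the upper row and late genes in the lower row. Cst7 and Ctsg are the panels without overlap; Hdc-GFPhi replicate 1 is the lowest library in every late gene panel.

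The 5 late genes shared a similar order of libraries, and the fractions overlapped for each of them. None was called by edgeR, DESeq2 or voom, and 1 (S100a9) had an unadjusted p under 0.05. S100a8 was at 135, 149, 260 and 269 CPM in Hdc-GFPhi replicates 1 to 4, and at 281, 215, 407 and 260 CPM in Hdc-GFPlo replicates 1 to 4. S100a9, its partner in calprotectin, was at 121, 139, 229 and 230 CPM in Hdc-GFPhi, and at 259, 185, 347 and 229 CPM in Hdc-GFPlo. For both, Hdc-GFPhi replicates 1 and 2 were the lowest libraries and Hdc-GFPlo replicate 3 the highest, with overlap between the rest. Log2 fold changes were -0.52 ± 0.24 for S100a8 (adjusted p = 0.462) and -0.50 ± 0.23 for S100a9 (adjusted p = 0.437). With Hdc-GFPlo replicate 3 dropped they were -0.29 for S100a8 and -0.31 for S100a9. The ratio of S100a8 to S100a9 counts stayed between 1.07 and 1.17 in the 8 libraries, while either level varied up to 3.01-fold. The pair are neighbours on chromosome 3, with 22.6 kb and no annotated gene between them.

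The specific granule genes Camp and Ngp followed a similar order of libraries. Camp was at 42.5, 49.7, 71.9 and 73.5 CPM in Hdc-GFPhi replicates 1 to 4, and at 93.4, 56.6, 119 and 59.3 CPM in Hdc-GFPlo replicates 1 to 4. Ngp was at 393, 505, 685 and 557 CPM in Hdc-GFPhi, and at 788, 507, 892 and 546 CPM in Hdc-GFPlo. Both were lowest in Hdc-GFPhi replicate 1 and highest in Hdc-GFPlo replicates 3 and 1, and Hdc-GFPlo replicates 2 and 4 lay among the Hdc-GFPhi libraries. The log2 fold changes were -0.46 ± 0.24 for Camp (adjusted p = 0.547) and -0.35 ± 0.20 for Ngp (adjusted p = 0.574). With Hdc-GFPlo replicate 3 dropped they were -0.22 for Camp and -0.18 for Ngp.

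Ltf differed least between the fractions among the late genes. It was at 350, 456, 626 and 495 CPM in Hdc-GFPhi replicates 1 to 4, and at 634, 451, 565 and 483 CPM in Hdc-GFPlo replicates 1 to 4. Hdc-GFPhi replicate 3 was nearly level with the highest library, Hdc-GFPlo replicate 1, and the log2 fold change was -0.15 ± 0.16 (95% interval -0.50 to 0.21, adjusted p = 0.833), or -0.10 with Hdc-GFPlo replicate 3 dropped. The ratio of Ngp to Ltf counts was 1.09 to 1.12 in Hdc-GFPhi and 1.12 to 1.58 in Hdc-GFPlo, where Hdc-GFPlo replicate 3 had the highest value. Camp, Ngp and Ltf lie on chromosome 9, 570 kb or more apart.

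The likeness of the patterns was described by the root mean square difference between scaled log2 CPM values over the 8 libraries, which is 0 for identical patterns. The 10 pairs of late genes had a median difference of 0.405, with S100a8 and S100a9 the closest at 0.0763. The 10 pairs of primary genes had a median of 0.849, with Ctsg and Cst7 the closest at 0.352 and Mpo and Prtn3 the farthest at 1.58. The 25 pairs of a primary and a late gene had a median of 1.29. All values come from the same libraries and share their depth and scaling. Hdc-GFPhi replicate 1 was the lowest library for 5 of 5 late genes but high for Mpo and Elane. Hdc-GFPlo replicate 3 was highest for 4 late genes and for Ctsg.

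**Figure D3:**
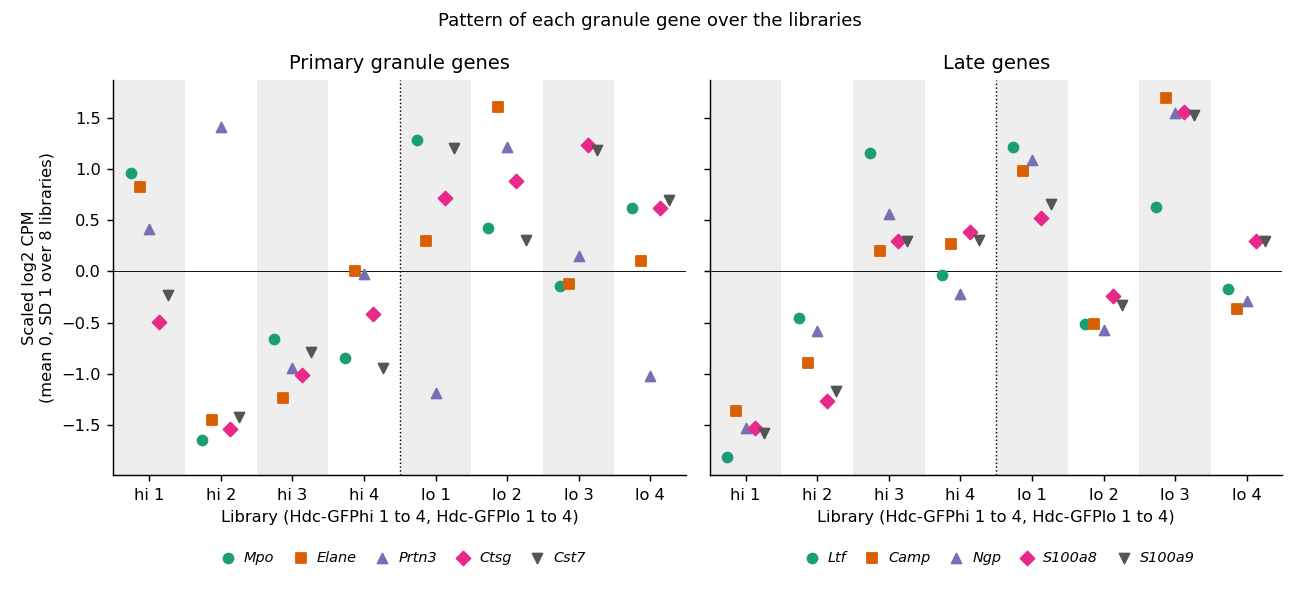
Log2 CPM of each gene scaled to mean 0 and SD 1 over the 8 libraries (y axis), by library (x axis, Hdc-GFPhi left of Hdc-GFPlo), for primary genes (left panel) and late genes (right panel). The late genes lie close together within each library (median pair difference 0.405), and Prtn3 stands apart from the other primary genes in Hdc-GFPhi replicate 2.

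The classes were set against each other within each library, as the mean log2 CPM of the primary genes minus that of the late genes. This difference was -1.47, -2.62, -3.08 and -2.63 in Hdc-GFPhi replicates 1 to 4, and -2.33, -1.55, -2.64 and -2.12 in Hdc-GFPlo replicates 1 to 4. The fractions overlapped over most of their range, and the Hdc-GFPhi mean of -2.45 ± 0.69 differed from the Hdc-GFPlo mean of -2.16 ± 0.46 by -0.29 (SD, n = 4 each). The distance is smaller than either SD, and no test was made because the genes were chosen with results of these data known. Leaving out 1 library at a time, it was -0.62 when Hdc-GFPhi replicate 1 was dropped and -0.45 when Hdc-GFPlo replicate 3 was dropped. It shrank to -0.08 when Hdc-GFPhi replicate 3 was dropped and to -0.09 when Hdc-GFPlo replicate 2 was dropped. The summed late counts were 1.04 to 2.68 times the summed primary counts in Hdc-GFPhi and 1.44 to 2.75 times in Hdc-GFPlo.

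Divided by exon length (GENCODE M21), the calprotectin and Ngp transcripts were the most abundant in both fractions. In Hdc-GFPhi the levels per kilobase were 438 ± 99.3 CPM for Ngp, 418 ± 146 for S100a8 and 345 ± 111 for S100a9, and in Hdc-GFPlo they were 559 ± 153, 598 ± 170 and 489 ± 131 for the same genes. These 3 did not differ from one another beyond the sum of their SDs. Prtn3, Mpo and Ltf came next, at 193 ± 37.8, 187 ± 48.4 and 172 ± 40.8 CPM per kilobase in Hdc-GFPhi and 178 ± 40.9, 235 ± 31.1 and 190 ± 29.5 in Hdc-GFPlo, again within their spread. Camp followed at 78.4 ± 20.7 in Hdc-GFPhi and 108 ± 39.1 in Hdc-GFPlo, and was apart from Cst7 by more than the SDs in both fractions. Cst7, Elane and Ctsg were the lowest, at 15.99 ± 4.47, 13.3 ± 10.3 and 5.83 ± 1.05 CPM per kilobase in Hdc-GFPhi and 41.1 ± 9.44, 24.1 ± 16.1 and 10.7 ± 1.06 in Hdc-GFPlo. Elane was thus far below Prtn3 in both fractions.

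**Figure D4:**
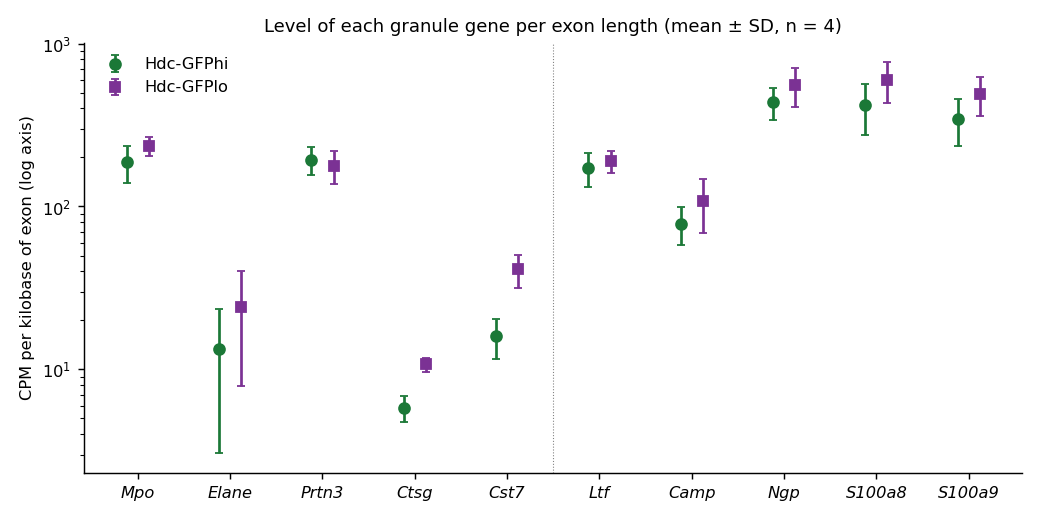
CPM per kilobase of exon (log axis) of each granule gene, mean ± SD over 4 libraries, with Hdc-GFPhi left of Hdc-GFPlo for each gene. Ngp, S100a8 and S100a9 are at the top and Ctsg, at 5.83 CPM per kilobase in Hdc-GFPhi and 10.7 in Hdc-GFPlo, is at the bottom.

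Other genes of the granule programme were examined as lists. Of 22 other specific and gelatinase granule genes, edgeR called none, DESeq2 called Lrg1 lower and voom called none. An unadjusted p under 0.05 was found for 9, all lower, where 5.56% of all genes were lower. The log2 fold change was below 0 for 21 of 22, with a median of -0.43, against 50.1% and 0.00 over all genes tested. The smallest p values were those of Lrg1, a secreted leucine-rich glycoprotein, at 8.22 ± 1.29 CPM for Hdc-GFPhi and 12.5 ± 1.33 CPM for Hdc-GFPlo (log2 fold change -0.60 ± 0.18, adjusted p = 0.179). Next by p were haptoglobin (Hp, log2 fold change -0.45 ± 0.14, adjusted p = 0.216) and the neutrophil collagenase Mmp8 (-0.50 ± 0.16, adjusted p = 0.225). For Lrg1 and Hp, 2 of the 22, the fractions did not overlap, against 6.92% of all genes and 3.54% with Hdc-GFPhi lower.

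Of 11 tested other azurophil granule genes, edgeR called none, with 1 lower and 1 higher at an unadjusted p under 0.05 and a median log2 fold change of -0.09. Prss57, a serine protease related to Elane, was at 31.5 ± 3.52 CPM for Hdc-GFPhi and 44.0 ± 3.24 CPM for Hdc-GFPlo, with no overlap (log2 fold change -0.48 ± 0.12, adjusted p = 0.1004). It was the 1 gene of the 11 without overlap, against 6.92% of all genes. DESeq2 called Prss57 lower. The granule membrane tetraspanin Cd63 stood at 0.43 ± 0.15 on the log2 scale (adjusted p = 0.258) and was called higher by voom and, with edgeR, without Hdc-GFPlo replicate 3. The lysosomal glucosidase Gaa came to 0.27 ± 0.15 in log2 fold change (adjusted p = 0.556).

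Of 7 tested protease inhibitors, Serpina3g, a cysteine and serine protease inhibitor of haematopoietic cells, rose to 340 ± 48.6 CPM in Hdc-GFPhi, against 228 ± 14.4 CPM in Hdc-GFPlo (log2 fold change 0.58 ± 0.11, with an adjusted p of 0.0296). It was called in 3 of the 8 fits with 1 library left out, and missed the threshold when the library dropped was replicate 1 or 2 of Hdc-GFPhi, or replicate 1, 2 or 4 of Hdc-GFPlo (log2 fold change 0.50 to 0.60, adjusted p 0.0539 to 0.134). No inhibitor was called lower, where 0.241% of all genes were called higher and 0.707% lower. At an unadjusted p under 0.05, 1 of the 7 was lower, against 5.56% of all genes. This was Serpinb1a, named here after its values were seen (log2 fold change -0.30 ± 0.13, adjusted p = 0.417). Near-identical Serpina3 copies lie beside Serpina3g, and no source used here says how shared reads were counted. Of 9 tested cysteine cathepsins, a family that includes targets of cystatin F, none was called by edgeR, DESeq2 or voom, and 1 had an unadjusted p under 0.05. Ctss, an endosomal protease, was at 45.8 ± 12.2 CPM for Hdc-GFPhi and 67.4 ± 9.28 CPM for Hdc-GFPlo (log2 fold change -0.56 ± 0.18, adjusted p = 0.221, and called lower with the covariate for replicates 1 and 2). The cathepsins with the next smallest p, Ctsf and Ctsz, had log2 fold changes of 0.36 ± 0.23 and -0.14 ± 0.10. Of 7 tested other S100 genes none was called by edgeR, DESeq2 or voom and none had an unadjusted p under 0.05. Their median log2 fold change was 0.05, and the smallest p were those of S100a5 (0.66 ± 0.55), S100a1 (0.20 ± 0.20) and S100a4 (-0.18 ± 0.24).

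Of 12 transcriptional and cytokine receptor regulators of granulocytes, Irf8 was called lower, where 0.707% of all genes were, and none was called higher. Their median was -0.09. Irf8, which directs progenitors to monocytes and dendritic cells, fell to 25.8 ± 6.16 CPM in Hdc-GFPhi, against 63.0 ± 10.4 CPM in Hdc-GFPlo (log2 fold change -1.29 ± 0.18, adjusted p = 0.00507). The remaining 11 had unadjusted p values above 0.05. Cebpe, named here for its role after its values were seen, was at 1.51 ± 0.464 CPM for Hdc-GFPhi and 1.68 ± 0.258 CPM for Hdc-GFPlo (log2 fold change -0.15 ± 0.36, adjusted p = 0.937).

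The 5 genes nearest to the pattern of the late genes, out of 10648 candidates, were Lcn2, Cops3, Chordc1, Hmgb1 and Cbx3, with root mean square differences of 0.123, 0.141, 0.248, 0.251 and 0.253 over the 8 libraries. Lcn2 encodes lipocalin-2, a siderophore-binding protein of specific granules, and was at 89.7 ± 24.3 CPM for Hdc-GFPhi and 119 ± 29.4 CPM for Hdc-GFPlo (log2 fold change -0.41, adjusted p = 0.523). Those nearest to the mean pattern of the primary genes were Rcn1, Ifi27l2a, Paox, Lpar1 and Ube2f, at 0.280, 0.305, 0.307, 0.360 and 0.361. The primary genes themselves lay farther from that mean, at 0.436 (Elane) to 1.31 (Prtn3), so it describes no single primary gene closely. The late genes lay at 0.211 (Ngp) to 0.426 (Ltf) from theirs. Among the 5 genes nearest to the primary mean, Lpar1, a receptor for lysophosphatidic acid, was lower in Hdc-GFPhi, at 2.06 ± 1.12 CPM against 7.01 ± 0.445 CPM in Hdc-GFPlo (log2 fold change -1.76, adjusted p = 0.0312). It was called in 2 of the 8 fits with 1 library left out, those without Hdc-GFPhi replicate 1 or 2, and missed the threshold in the other 6 (log2 fold change -1.82 to -1.62, adjusted p up to 0.112).

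Markers of other cell types moved with the granule genes to differing degrees, and their part in the results was not tested. Mature neutrophil markers (11 of 12 in the table) summed to 91.9 to 154 CPM over Hdc-GFPhi libraries and 144 to 175 CPM over Hdc-GFPlo libraries, lowest in Hdc-GFPhi replicate 1, as were 5 of 5 late genes, and highest in Hdc-GFPlo replicate 3, as were 4 of them. Between these ends the orders differed. For the markers, Hdc-GFPlo replicate 1 (144 CPM) lay below Hdc-GFPhi replicate 3 (154 CPM). For the summed late genes it lay above, at 2056 against 1873 CPM. None of 10 markers tested was called by edgeR, DESeq2 or voom, and 5 were lower at an unadjusted p under 0.05, against 5.56% of all genes. The log2 fold change was below 0 for 7 markers and above 0 for 3, with a median of -0.36. Trem1, a receptor of neutrophils and monocytes (log2 fold change -0.92 ± 0.31, adjusted p = 0.254), Ifitm6 (-0.84 ± 0.31) and Retnlg, a resistin-like protein of neutrophils (-0.56 ± 0.24), had the smallest p. Ly6g was the 1 marker of the list missing from the table. None of the 11 present was at 0 throughout, and Stfa2l1 totalled 13 counts over the Hdc-GFPhi libraries and 10 over the Hdc-GFPlo libraries. Monocyte markers summed to 74.4 to 108 CPM over Hdc-GFPhi libraries and 151 to 226 CPM over Hdc-GFPlo libraries. Clec12a, Ly6c2 and Ccr2 were called lower, where 0.707% of all genes were called lower, and the median was -1.14 over 10. Ccr2 was called in 2 of 8 fits with 1 library left out, in which replicate 2 of Hdc-GFPhi or replicate 3 of Hdc-GFPlo was dropped (adjusted p at most 0.112 in the rest), and the other markers named in all 8.

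Cst7 is also expressed by cytotoxic lymphocytes. Of 12 markers of these, 5 could be tested and none was called by edgeR, with 2 lower at an unadjusted p under 0.05. These were Klrd1 (log2 fold change -2.82 ± 0.66, adjusted p = 0.0748) and Il2rb (-3.05 ± 0.81, adjusted p = 0.1195), both called by DESeq2 and voom, with totals of 19 and 12 counts over Hdc-GFPhi and 121 and 93 counts over Hdc-GFPlo. Cd3e totalled 0 counts over Hdc-GFPhi and 7 over Hdc-GFPlo, and Gzmb 12 over Hdc-GFPhi and 5 over Hdc-GFPlo. The list's sum, most of it Nkg7, was 179 to 224 CPM over Hdc-GFPhi libraries and 197 to 265 CPM over Hdc-GFPlo libraries. Of the surface lineage panel, the B cell gene Ms4a1 had a log2 fold change of -0.75 ± 0.33 and the myeloid integrin Itgam one of -0.40 ± 0.19, and edgeR called neither. Of the LSK gate genes, Flt3 had the smallest p (-0.50 ± 0.12, adjusted p = 0.0965) and was called lower by DESeq2 and voom, among other alternatives, and Cd34 and Ptprc had -0.15 ± 0.08 and -0.17 ± 0.10. Among 8 B cell markers Vpreb1, Cd79a, Ebf1 and Igll1 were called lower, where 0.707% of all genes were called lower. Igll1 was called in 1 of 8 fits with 1 library left out. The log2 fold change was below 0 for 8 of 8, with a median of -2.04. The fractions did not overlap for 6 of them, against 6.92% of all genes and 3.54% with Hdc-GFPhi lower.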

How the data were processed

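The authors deposited raw read counts per gene symbol, as whole numbers, for 8 libraries. Per the labels' protocols, RNA of 2000 sorted cells was amplified with a SMARTer kit and made into Nextera XT libraries. Build mm9 and the tools HTSeq 0.6.1, TopHat2 (as version 2.04), Bowtie2 and bcl2fastq 1.8.4 are named in the submitters' processing notes. No source used here gives the annotation, the strand setting or the handling of multiply mapped reads. Without molecular identifiers, copies of 1 molecule add to the count.

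Titles gave each library its group and replicate number. Genes were kept by filterByExpr (13300 of 23284), scaled by TMM and tested with edgeR 4.0.16 (glmQLFit, robust, glmQLFTest) in R 4.3.3, Hdc-GFPhi over Hdc-GFPlo, with Benjamini-Hochberg adjustment over all genes tested. "Called" means an adjusted p under 0.05. The common biological coefficient of variation was 19.9%. Log2 CPM used a prior count of 2, and likeness used genes with a mean of at least 50 counts. Libraries within a fraction differed by more than sampling noise in every pair (chi-square per degree of freedom 13.8 to 58.2, highest for the pairs with Hdc-GFPlo replicate 3). On simulated counts of this comparison (13162 genes), 16% of the changes of 0.5 in log2 units and 78% of the changes of 1 were called, with 9 calls among unchanged genes. DESeq2 1.42.0 and limma 3.58.1 (voom) served as alternatives. Figures used matplotlib 3.10.9.

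The genes, lists and alternatives were chosen with earlier results of these data known. All 10 granule genes are named. Of each list, called genes or else up to 3 genes with the smallest p are named, with exceptions stated, and 5 genes are named for likeness to each class, leaving out predicted genes. Of the lists of eosinophil, basophil and mast cell, and erythroid markers, none was called by edgeR, DESeq2 or voom, with 2 lower and 1 higher at an unadjusted p under 0.05. Some genes of the marker lists are not reported here.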

Additional observations from a re-analysis of the deposited data

How the results depend on the processing

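Over 18 alternatives for each of the 10 genes, 175 of 180 values kept their direction and their side of the threshold. Prtn3 changed sign without Hdc-GFPhi replicate 2 (adjusted p = 0.993), and the cause was not tested. With 1 library left out its log2 fold change ranged from -0.011 to 0.27. The number of granule genes called, all of them primary, was 2 (Cst7 and Ctsg) with DESeq2, with voom and with a covariate separating replicates 1 and 2 from 3 and 4. It was 0 when Hdc-GFPhi replicate 4 was left out along with Hdc-GFPlo replicate 3, an alternative added after seeing the data, where fewer samples entered, and 1 in every fit with 1 library left out. No late gene was called under any alternative run. Over all genes, 404 were called with DESeq2, 276 with voom, 275 with that covariate and 224 with the replicate block, against 126 in the reported fit. Leaving out 1 library gave 52 (without Hdc-GFPlo replicate 1) to 146 calls, with 68 without Hdc-GFPhi replicate 3. The primary minus late difference ranged from -0.62 to -0.08 when 1 library was left out.

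No label says whether same-numbered libraries are paired, and the correlation did not exceed 0.1 for replicate 3. The correlations of deviations between same-numbered libraries were 0.257, 0.347, 0.0755 and 0.100 for replicates 1 to 4. Replicates 1 and 2 of each fraction were closest to their own number, and replicate 3 of either fraction was closest to replicate 4 of the other. The replicate block left the call on Cst7 as the 1 call among the granule genes. The lowest counts behind a granule gene were those of Ctsg, at 97 to 230 per library, and of Elane, at 108 to 797.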

Other observations

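Some granule protein genes of other granulocytes were at or near 0 in some libraries and high in others. The basophil protease Prss34 ranged from 0 to 1069 counts over Hdc-GFPhi libraries and from 0 to 1120 over Hdc-GFPlo libraries. In Hdc-GFPlo, 1 library held 1120 of its 1123 counts. The eosinophil peroxidase Epx ranged from 0 to 1014 in Hdc-GFPhi and from 1 to 129 in Hdc-GFPlo. The mast cell tryptase Tpsb2 had 0 to 84 counts in Hdc-GFPhi libraries, with 84 of its 91 counts in 1 library, and 0 in all Hdc-GFPlo libraries. Neither Prss34 (adjusted p = 0.941) nor Epx (adjusted p = 0.767) was called by edgeR, and Tpsb2 was too low to test. These genes were chosen after their values were seen.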
